A study of Mus musculus with 8 samples.

Results

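States 31 and 26 are 2 of the 42 numbered cell states, each a cluster of cells, in a deposited map of mouse embryos at gastrulation. They were taken by their column numbers alone, under the working names of a late (31) and an early (26) neuromesodermal progenitor state. The table gives 1 value per gene and state for 712 genes, called the level here, which is the centre of the cluster on a scale that the sources used here do not name. The map was built from 8 single-cell RNA libraries of pooled wild-type embryos between embryonic days 6.5 and 8.5, with 1 library at each of the first 2 stages (E6.5 and E7.0) and 2 at E7.5, E8.0 and E8.5 each, every pool holding 4 to 10 embryos. The libraries are labelled 1 and 2 at E7.5 but 1a and 1b at E8.0 and E8.5. Those labels do not say whether 1a and 1b are separate pools. B6D2F1 oocytes were injected with sperm of B6/CAST F1 males, cultured to blastocysts and carried by CD-1 surrogates, with outer extraembryonic tissue kept where possible. No column names a library or a stage, so every state was taken to pool all libraries, and the late and early names cannot be checked against embryonic day. With 1 value per gene and state and an unknown number of cells and reads behind it, no value has an error and no test was possible. Differences are given as differences in level, and a gene is called higher or lower when its difference reached 0.5, a size limit and not a test. Levels ran from 0 to 1.79 over the table, and the median level over genes was 0.065 in state 31 and 0.063 in state 26, within the range of 0.012 to 0.11 over all states.

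Neuromesodermal progenitors lie at the tail end of the embryo, in the caudal epiblast beside the node and streak, and give rise both to spinal cord and to the paraxial mesoderm that forms somites. They are known for holding the neural factor Sox2 together with the mesodermal factor T, also called brachyury. Wnt and Fgf signals maintain them, Cdx homeobox factors link those signals to the Hox genes that set position along the trunk, and breakdown of retinoic acid by Cyp26a1 keeps the differentiating signal away. Hox genes of higher paralogue number are switched on later and mark more posterior levels.

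The 6 markers of the label were high in both states. Nkx1-2, a homeobox factor of the caudal epiblast, stood at 0.60 in state 31 and 0.84 in state 26, while the other 40 states averaged 0.063. Cdx2 stood at 1.01 and 1.00 in states 31 and 26 (mean of the others 0.28), and Cdx4 at 0.98 and 0.70 (0.096). The ligand genes Fgf8, at 0.85 and 0.61 (0.19), and Fgf17, at 0.72 and 0.39 (0.049), were also high in states 31 and 26. T stood at 0.79 in state 31 and 0.74 in state 26 (0.22), the ranks 5 and 6 of 42, below a highest level of 1.35 in state 38. Summed over the 6 markers, the levels of 4.95 in state 31 and 4.27 in state 26 were the highest of all states, followed by 3.20 in state 30, with a median of 0.53 over the 40 others. Sox2, which was not among the markers, reached 0.45 in state 31 and 0.37 in state 26, the ranks 7 and 10, and its highest level was 0.67 in state 24. The states were formed from these same cells and genes, so high marker levels describe the clusters and do not test their name.

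**Figure D1:**
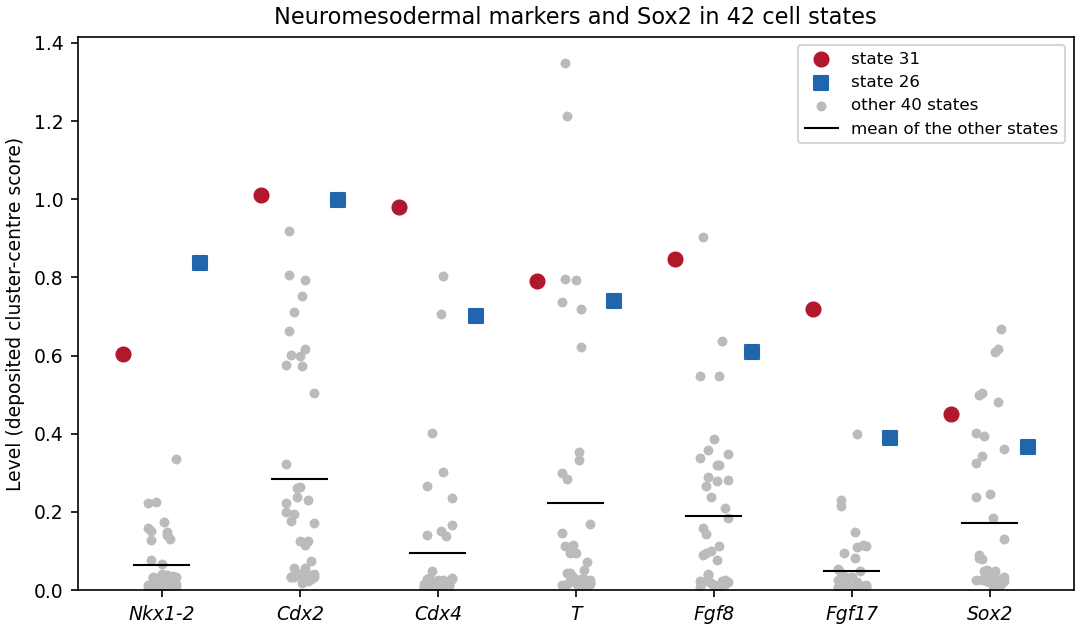
Level (deposited cluster-centre score, vertical axis) of the 6 markers and Sox2 in state 31 (red circles), state 26 (blue squares) and the other 40 states (grey points, with a black line at their mean). Cdx2, Cdx4 and Fgf17 were highest in state 31 and Nkx1-2 in state 26, while T had 4 other states above both.

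Lists of markers of other cell types that whole embryos could add were summed in the same way. The 11 node and notochord markers summed to 0.43 in state 31, above the median of 0.34 over the other states, and to 0.19 in state 26, below it. The highest sum was 8.72 in state 38. The notochord factor Noto stood at 0.0067 and 0.0034 in states 31 and 26. The 17 endoderm markers summed to 2.02 in state 31 and 1.94 in state 26, close to the median of 1.99 over the other states, whose range was 0.99 to 17.7. The 9 blood markers summed to 1.06 in state 31 and 1.07 in state 26, below the median of the others (1.20; range 0.27 to 9.24), with the globin gene Hba-a1 as the highest member at 0.53 and 0.41, and the erythroid factors Gata1 at 0.010 and 0.012 and Klf1 at 0.025 and 0.018. Summed levels of lateral, heart and extraembryonic mesoderm markers (17 genes) were 2.05 in state 31 and 1.44 in state 26 (median of the others 2.03, highest 12.1), of which Msx1, a homeobox gene, held 0.79 and 0.68. For the 10 surface ectoderm and crest markers they were 0.95 and 1.01 (median 1.78, highest 4.96), and for the 6 somite markers 0.47 and 0.36 (median 0.37, highest 4.72). The 9 trophoblast markers summed to 1.41 in state 31 and 1.37 in state 26, above the median of 0.83 (highest 6.89), and Cdx2 made up 1.01 and 1.00 of those sums. None of the markers in these 7 lists was listed at exactly 0 in either state. Some other lists stood further above their medians. The 11 presomitic mesoderm and Notch genes summed to 4.07 in state 31 and 3.29 in state 26 (median 1.23), and the 13 neural genes to 3.98 and 3.41 (median 1.92). The 16 streak and early mesoderm genes summed to 2.61 in state 31 (median 1.34), and state 26 ranked 5 of 42. The 21 pluripotency and epiblast genes summed to 2.47 in state 31, below the median of 3.58, and to 4.91 in state 26.

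State 31 against state 26 asks how the late form differs from the early one. Of 712 genes, 5 were called higher in state 31 (0.702%) and 3 lower (0.421%), and the SD of all differences was 0.12. The 5 were the trunk Hox genes Hoxc9, Hoxa9 and Hoxc8, the Hox cluster transcript Hoxb5os and Cyp26a1. The 3 were Pou5f1, the pluripotency factor Oct4, Fst, which encodes the activin antagonist follistatin, and Cdx1. At a difference of 0.25, 17 genes were higher in state 31 (2.39%) and 18 lower (2.53%).

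**Figure D2:**
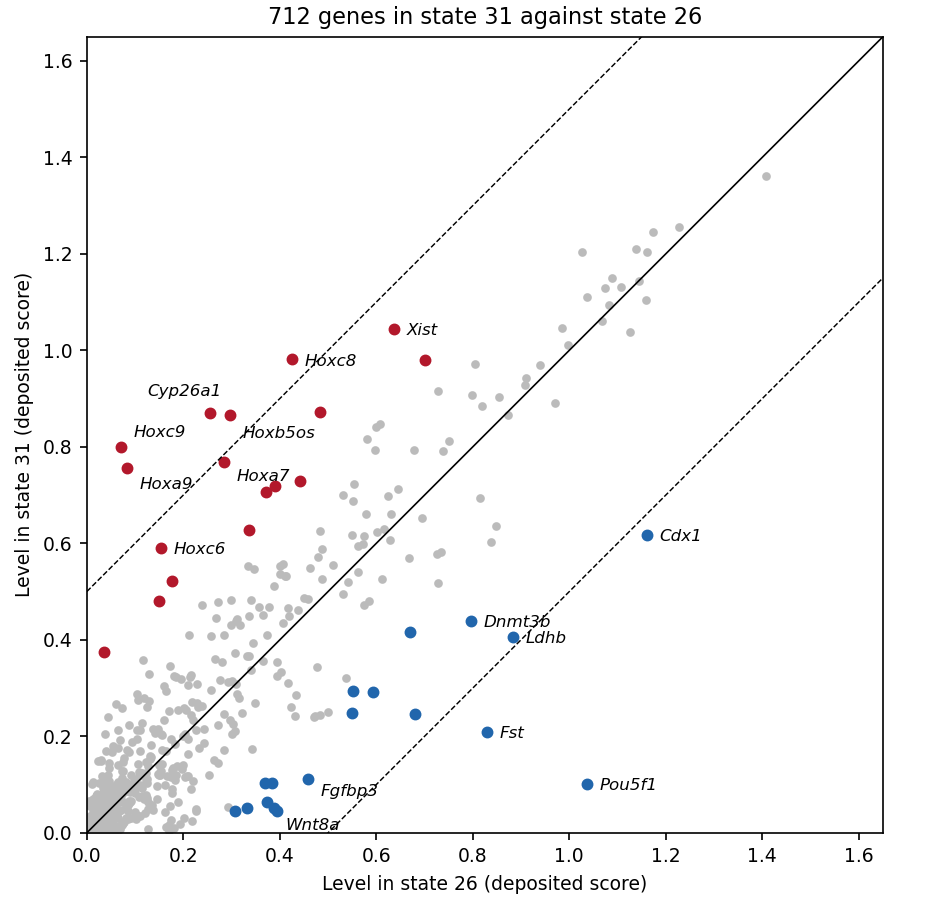
Level in state 31 (vertical axis) against level in state 26 (horizontal axis), both as deposited scores, for 712 genes, with lines of equality (solid) and of a difference of 0.5 (dashed); genes at least 0.25 higher in state 31 are red and those at least 0.25 lower are blue. Most genes lie near equality, Hoxc9, Hoxa9, Cyp26a1, Hoxb5os and Hoxc8 lie above the upper dashed line, and Pou5f1, Fst and Cdx1 below the lower one.

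The difference between the states in Hox genes followed the number of the paralogue group. Hoxc9 (chromosome 15, 102976439 to 102985099, GRCm38) stood at 0.80 in state 31 and 0.070 in state 26, a difference of 0.73. Hoxa9 (chromosome 6, 52223100 to 52231089) stood at 0.76 and 0.083 in states 31 and 26, a difference of 0.67. For both genes state 31 held the highest level of all 42 states, while state 26 ranked 13 for Hoxc9 and 8 for Hoxa9. The next level was that of state 30, at 0.59 for Hoxc9 and 0.53 for Hoxa9. Hoxc8 (0.98 in state 31, 0.42 in state 26), Hoxa7 (0.77 and 0.28) and Hoxc6 (0.59 and 0.15) had smaller differences of 0.56, 0.48 and 0.44. In state 30 Hoxc8, Hoxa7 and Hoxc6 stood at 0.79, 0.58 and 0.45. High trunk Hox levels were thus shared with state 30. Summed over the 9 Hox genes of groups 5 to 9, levels were 6.16 in state 31, 5.18 in state 30 and 2.54 in state 26.

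At the other end, Hoxb1, at 0.58 in state 31 and 0.73 in state 26, and Hoxb2, at 0.50 and 0.53, differed by -0.15 and -0.04. All 7 measured genes of groups 7 to 9 had higher levels in state 31, with differences of 0.068 to 0.73 and a median of 0.48. The 5 genes of groups 4 to 6 differed by 0.095 to 0.44, and the 3 genes described from groups 1 and 2 by -0.15 to 0.16, of which only Hoxd1 was higher in state 31. Across 15 Hox genes, Pearson's r between paralogue number and difference was 0.70 and Spearman's rho 0.70, as a description of genes that share clusters and these 2 states. The order held within the Hoxc and Hoxd genes and from Hoxa7 to Hoxa9, while in the Hoxb cluster Hoxb8 (0.71 in state 31, 0.65 in state 26) differed by 0.07, less than Hoxb4 did. Groups 10 to 13 were not analysed here.

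**Figure D3:**
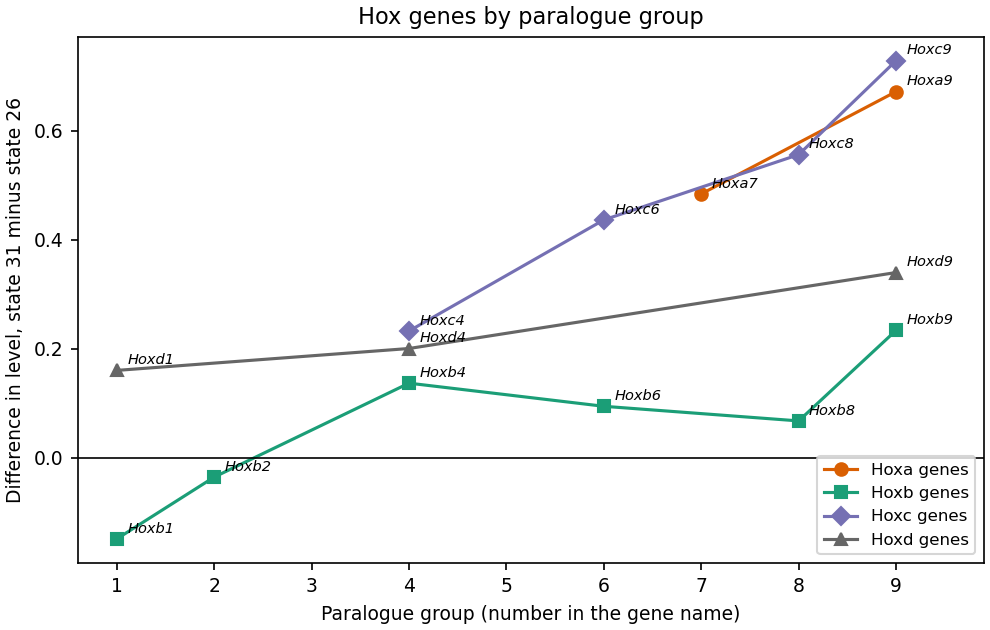
Difference in level, state 31 minus state 26 (vertical axis), of 15 Hox genes against the paralogue group (horizontal axis), with 1 line per cluster. Differences run from -0.15 for Hoxb1 to 0.73 for Hoxc9, and the Hoxb line declines slightly between groups 4 and 8.

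The non-coding transcripts Hoxb5os and Hoxaas3 of the Hox clusters were about as high in state 30 as in state 31. Hoxb5os stood at 0.87 in state 31 and 0.30 in state 26, with 0.84 in state 30, and Hoxaas3 at 1.20 and 1.03, with 1.17 in state 30. Overlaps were sought only among the 712 measured genes, of which Hoxb5os overlaps Hoxb6 and Hoxaas3 overlaps Hoxa7, each on the opposite strand. Whether counting used the strand is not given in the sources used here, so reads of such pairs may not be told apart.

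The 3 Cdx genes, which encode activators of trunk Hox genes, differed unequally between the states. Cdx1 was at 0.62 in state 31 and 1.16 in state 26, its highest level of any state, and the difference was -0.54. Cdx4, on chromosome X, was at 0.98 in state 31, the highest of any state, and 0.70 in state 26, a difference of 0.28, and Cdx2 differed by 0.014. The promoters of 3 genes high in state 31 are shown for the letters TTTATG, a form of the Cdx recognition sequence, searched on both strands in the 250 bases before the RefSeq start (GRCm38.p6). It was present in 10.8% of 32851 mouse promoters of that length. Of the 9 measured genes searched that had a promoter entry (Hox genes of groups 5 to 9, Cdx genes, markers and Cyp26a1), 3 held a match: Hoxa7 and Hoxb8 with 2 each and T with 1. Hoxa9, Hoxd9, Cdx2, Cdx4, Nkx1-2 and Cyp26a1 held none in this window. Hoxb6, Hoxb9, Hoxc6, Hoxc8, Hoxc9, Cdx1, Fgf8 and Fgf17 were measured but had no promoter entry, so they could not be searched. Matches, which do not overlap, are in capitals in the lines that follow. Hoxb8 lies on the plus strand at chr11:96281655-96281904, Hoxa9 on the minus strand at chr6:52227371-52227620 and T on the plus strand at chr17:8434173-8434422. A match is a run of letters and was not tested as a binding site.
Hoxb8: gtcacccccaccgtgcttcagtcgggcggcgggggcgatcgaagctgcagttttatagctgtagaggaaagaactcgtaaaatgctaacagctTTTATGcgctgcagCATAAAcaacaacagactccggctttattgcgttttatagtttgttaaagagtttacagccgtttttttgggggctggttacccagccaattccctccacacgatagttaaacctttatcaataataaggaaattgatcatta
Hoxa9: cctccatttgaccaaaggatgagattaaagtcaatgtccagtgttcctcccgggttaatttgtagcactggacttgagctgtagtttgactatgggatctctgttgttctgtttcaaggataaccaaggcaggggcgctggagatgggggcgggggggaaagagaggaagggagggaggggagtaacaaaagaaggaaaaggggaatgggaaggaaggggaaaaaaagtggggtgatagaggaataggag
T: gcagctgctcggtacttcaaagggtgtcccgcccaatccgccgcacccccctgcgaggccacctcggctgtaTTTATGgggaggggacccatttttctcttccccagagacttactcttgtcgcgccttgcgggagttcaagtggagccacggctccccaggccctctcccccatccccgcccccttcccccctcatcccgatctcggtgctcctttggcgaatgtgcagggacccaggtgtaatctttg

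Cyp26a1 (chromosome 19, 37697798 to 37701536), the enzyme that degrades retinoic acid, stood at 0.87 in state 31 and 0.25 in state 26, a difference of 0.62. State 31 held its highest level of all states, just above 0.83 in state 37, and state 26 ranked 18. Aldh1a2, which makes retinoic acid, was low in both, at 0.077 in state 31 and 0.11 in state 26. The retinoic acid binding genes Crabp2 (0.94 and 0.91) and Crabp1 (0.55 and 0.51) were close in states 31 and 26. The Cyp26a1 promoter is shown because retinoic acid receptors are known to bind direct repeats of a short half-site, and its last bases before the start hold such a repeat. The pattern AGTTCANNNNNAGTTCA, searched on both strands over the same 250-base windows, was found in 7 of 32851 promoters (0.0213%). That is the share of these letters only, not of all forms of such a repeat. The pattern has the same letters as the repeat in Cyp26a1, so its match there was fixed in advance and is no test. In Cyp26a1 it lies on the strand opposite to the gene, from base -32 to base -16 before the RefSeq start, in the window chr19:37697558-37697807 on the plus strand, where the half-sites are in capitals.
Cyp26a1: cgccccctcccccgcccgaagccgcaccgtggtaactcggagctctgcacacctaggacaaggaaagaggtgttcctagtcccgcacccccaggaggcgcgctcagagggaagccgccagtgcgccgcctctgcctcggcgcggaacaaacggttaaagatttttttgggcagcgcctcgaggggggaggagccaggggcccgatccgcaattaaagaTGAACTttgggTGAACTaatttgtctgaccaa

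Of the 21 measured pluripotency and epiblast genes, Pou5f1 alone was called lower in state 31. Pou5f1 (chromosome 17, 35506018 to 35510772) had the largest difference of all genes, at 0.10 in state 31 and 1.04 in state 26, or -0.94. State 26 thereby ranked 7 of 42 for Pou5f1, near states 2 (0.96) and 11 (0.82), whereas state 31 ranked 31, near states 30 (0.21), 39 (0.13) and 24 (0.042). Dnmt3b, a de novo DNA methyltransferase, was at 0.44 in state 31 and 0.80 in state 26, Pim2 at 0.045 and 0.31, and the epithelial cadherin gene Cdh1 at 0.052 and 0.33. Nanog was at 0.0026 in state 31 and 0.038 in state 26, Utf1 at 0.0032 and 0.17, and Sox2, the highest member in state 31, at 0.45 and 0.37. In that list 17 genes had lower levels in state 31, 4 of them by at least 0.25 (Pou5f1, Dnmt3b, Trh and Pim2) and none was higher by 0.25, with a median difference of -0.035 against 0.0019 over all genes.

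Fst was lower in state 31, at 0.21 in state 31 and 0.83 in state 26. Ldhb, a subunit of lactate dehydrogenase, fell just short of 0.5, at 0.41 and 0.88. The ligand gene Wnt8a, of the early streak, stood at 0.045 in state 31 and 0.39 in state 26, which was its highest level of any state, against 0.17 in the next, state 1. Fgfbp3, which encodes a carrier of Fgf ligands, was at 0.11 and 0.46 in states 31 and 26. Nefm, a neurofilament gene, was at 0.25 and 0.55, and the level of state 26 was again the highest of all. Of the 16 measured genes of streak and early mesoderm 12 had lower levels in state 31, although only Fst and Wnt8a by 0.25 or more. The median difference of the list was -0.049, against 0.0019 over all genes.

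The listed Fgf, Wnt and adhesion genes all differed by less than 0.5 between the states. Fgf17 stood at 0.72 in state 31 and 0.39 in state 26, a difference of 0.33, and Fgf8 differed by 0.24. The Fgf-responsive factor gene Etv4 went the other way by 0.10, at 0.57 in state 31 and 0.67 in state 26, and these were its highest levels of any state. In the Wnt pathway, the enhancer of Wnt signalling Rspo3 was at 0.84 in state 31 and 0.60 in state 26, the ligand gene Wnt5b at 0.56 and 0.41, and the receptor gene Fzd10 had levels of 0.41 and 0.37. Wnt5b and Fzd10 had their 2 highest levels in states 31 and 26. The adhesion gene Ncam1 was at 0.63 in state 31 and 0.34 in state 26, Greb1 at 0.87 and 0.48, and the ephrin receptor gene Epha5 at 0.73 and 0.44.

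By list, 6 of 9 Hox genes of groups 5 to 9 were at least 0.25 higher in state 31 and none lower, with a median difference of 0.44. Of the 6 markers 2 were higher by 0.25 (Fgf17 and Cdx4) and none lower. In the Fgf list the count was 1 higher (Fgf17) and 1 lower (Fgfbp3) of 8, and in the Wnt list 0 higher and 1 lower (Wnt8a) of 11. Of 13 neural genes 1 was higher (Ncam1) and 1 lower (Fgfbp3), and none of 11 presomitic mesoderm and Notch genes or of 6 somite genes passed in either direction. The number and direction of such calls over all genes, 17 higher and 18 lower, is the background for these counts.

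A few genes that vary with the sex or blood content of a cell pool also differed. Xist, which encodes the non-coding RNA of X inactivation, stood at 1.04 in state 31 and 0.64 in state 26. The globin gene Hbb-bs stood at 0.052 in state 31 and 0.39 in state 26, while Hba-a2 stood at 0.26 and 0.074 and Hba-a1 at 0.53 and 0.41, so the globins differed in opposite directions. Globin copies of the same type, such as Hba-a1 and Hba-a2, are nearly identical in sequence and their separate levels are uncertain. The part of these genes in the other differences was not tested.

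The profile of state 31 was about as close to state 30 as to state 26. State 30 held the highest levels of the presomitic mesoderm genes Tbx6, Hes7, Dll1 and Dll3 of all states. Across 712 genes, each centred over the 42 states, Pearson's r was 0.714 between states 31 and 26 and 0.736 between state 31 and state 30, an order that turned under Spearman correlation (0.712 and 0.692), without centring (0.895 and 0.893) and without the Hox genes and transcripts (0.722 and 0.660). The next states for state 31 were state 39 at 0.462, where the neural genes Pax6, Hes5 and Irx3 peaked, and state 12 at 0.440. For state 26 the nearest of the other 40 states was state 11 at 0.593, followed by state 30 at 0.531 and state 2 at 0.422. With state 11, r was 0.353 for state 31, and with state 2 it was 0.236. Genes are not independent replicates, the states share libraries, and these values carry no test.

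**Figure D4:**
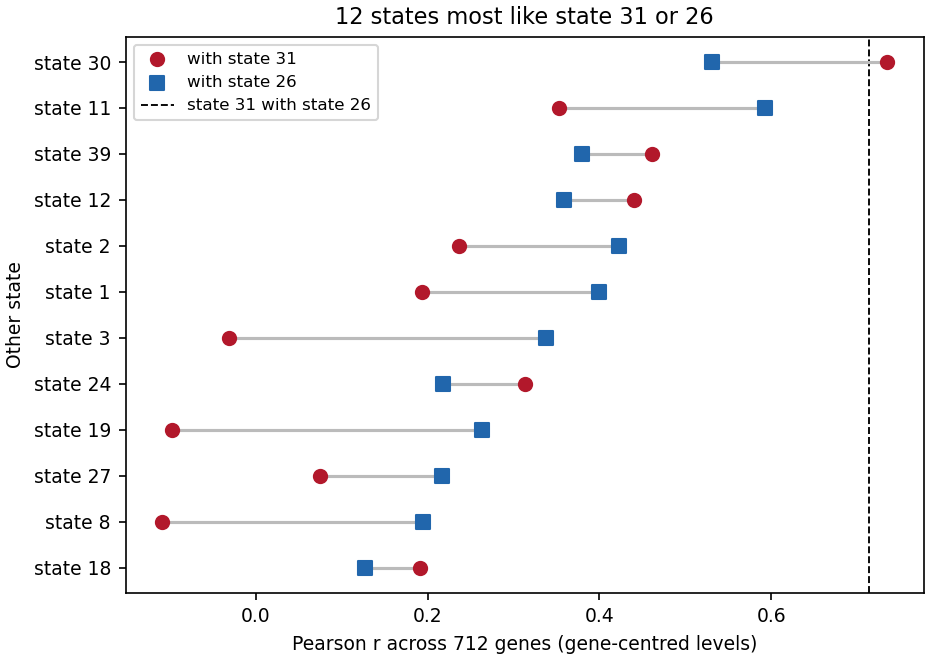
Pearson's r across 712 gene-centred levels (horizontal axis) between each of 12 other states (vertical axis) and state 31 (red circles) or state 26 (blue squares); the dashed line marks r between states 31 and 26. State 31 lies at 0.736 with state 30, and state 26 has its highest value, 0.593, with state 11.

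In a comparison added after the levels had been seen, each state was set against its nearest other state. State 31 was at least 0.5 higher than state 30 in 2 genes and lower in 4. Hes3, a repressor of neuronal differentiation, reached 0.59 in state 31, against 0.018 in state 30, and Nkx1-2 reached 0.60, against 0.039. Lower in state 31 were the protocadherin gene Pcdh19 (0.028 against 0.68), Cited1 (0.63 against 1.23), Phlda2 (0.42 against 0.98) and the Notch ligand gene Dll1 (0.13 against 0.63). Sox2 differed by less than 0.5, at 0.45 in state 31 and 0.029 in state 30. State 26 was higher than state 11 in 5 genes and lower in none. These were Cdx1 (1.16 against 0.57), T (0.74 against 0.17), Hoxaas3 (1.03 against 0.49), Fst (0.83 against 0.33) and Nkx1-2 (0.84 against 0.34).

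State 2, which held the early mesoderm gene Mesp1 at 0.90 together with T at 0.72, carries the working name of a late primitive streak. The mean of states 31 and 26 was at least 0.5 above it, with both states on the same side, in 10 genes (1.4%), and below it in 7 (0.983%). Hoxc8 had the largest positive difference, at 0.98 in state 31 and 0.42 in state 26, against 0.052 in state 2. Hoxaas3 (1.20 and 1.03 against 0.47), Hoxb9 (0.82 and 0.58 against 0.11), Nkx1-2 (0.60 and 0.84 against 0.15) and Epha5 (0.73 and 0.44 against 0.039) followed. Cdx4 (0.98 and 0.70 against 0.30), Hoxb8 (0.71 and 0.65 against 0.15) and Hes3 (0.59 and 0.49 against 0.010) were also higher, as were Map1b and Hoxb5os. T itself was close in all 3 states.

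Of the 7 genes lower in states 31 and 26 than in state 2, Mesp1 and Lefty2 were among the 16 listed streak and early mesoderm genes and Hand1 and Myl7 among the 17 of lateral, heart and extraembryonic mesoderm. Phlda2, an imprinted gene, stood at 0.42 in state 31 and 0.67 in state 26, against 1.45 in state 2. Mesp1 was at 0.030 and 0.091 in states 31 and 26, Aldh1a2 at 0.077 and 0.11 against 0.74, and the Nodal antagonist gene Lefty2 at 0.031 and 0.017 against 0.60. The lateral mesoderm factor Hand1 (0.045 and 0.086 against 0.64), Pcdh19 (0.028 and 0.085 against 0.62) and the myosin light chain gene Myl7 (0.12 and 0.15 against 0.65) completed the group. The counts leaned on state 31 for the higher genes: alone it gave 18 higher and 8 lower, and state 26 alone 2 higher and 7 lower. With each state scaled to one SD, 6 genes were higher and 8 lower. Of the 9 Hox genes of groups 5 to 9, 3 were higher and none lower.

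State 11, with Pou5f1 at 0.82 and the anterior gene Hesx1 at 0.44, carries the working name of neural ectoderm. States 31 and 26 were higher than it in 11 genes (1.54%) and lower in none (0%). Hoxaas3 (1.20 and 1.03 against 0.49), Cdx4 (0.98 and 0.70 against 0.23), T (0.79 and 0.74 against 0.17) and Rspo3 (0.84 and 0.60 against 0.14) were among them. Epha5 (0.73 and 0.44 against 0.025), Greb1, Hoxc8, Hoxb9, Cdx2 and the somite clock gene Hes7 (0.62 and 0.55 against 0.082) were others. Xist headed the group, at 1.04 in state 31 and 0.64 in state 26, against 0.18 in state 11, and the part of sex in this comparison was not tested. Most of the distance again came from state 31. Alone, state 31 was higher in 22 genes, with all 11 among them, and lower in 2. State 26 alone was higher in 5 genes, of which only 2 (T and Hoxaas3) were among the 11, and lower in none. Among genes below the limit, Hesx1 (0.0095 and 0.018 against 0.44), Sfrp1 (0.23 and 0.22 against 0.59) and Otx2 (0.0090 and 0.016 against 0.34) had lower levels in states 31 and 26. Sox2 was level across the 3 states, at 0.45, 0.37 and 0.36.

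State 24 held the highest Sox2 (0.67) and Sfrp1 (0.90) of all states and carries the working name of fore- and midbrain. States 31 and 26 were higher than it in 17 genes (2.39%) and lower in 3 (0.421%). All 3 Cdx genes were among the 17, with Cdx2 at 1.01 and 1.00 against 0.029, Cdx1 at 0.62 and 1.16 against 0.035, and Cdx4 at 0.98 and 0.70 against 0.023. Of the 6 markers 5 were called, with T at 0.79 and 0.74 in states 31 and 26, against 0.014 in state 24, and Fgf17 fell short. Rspo3 (0.84 and 0.60 against 0.066) and Etv4 (0.57 and 0.67 against 0.057) were higher as well. Pou5f1 was among the 17 through state 26 (1.04, against 0.10 in state 31 and 0.042 in state 24), and Cyp26a1 mainly through state 31. The 3 lower genes were Crabp1 (0.55 and 0.51 against 1.21), the Wnt antagonist gene Sfrp1 (0.23 and 0.22) and the growth factor gene Ptn (0.66 and 0.58 against 1.17). Sox2 and Pax6, at 0.088 in state 31, 0.039 in state 26 and 0.45 in state 24, had lower levels in states 31 and 26 without reaching 0.5. Hes3 was similar in the 3 states (0.59, 0.49 and 0.42).

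**Figure D5:**
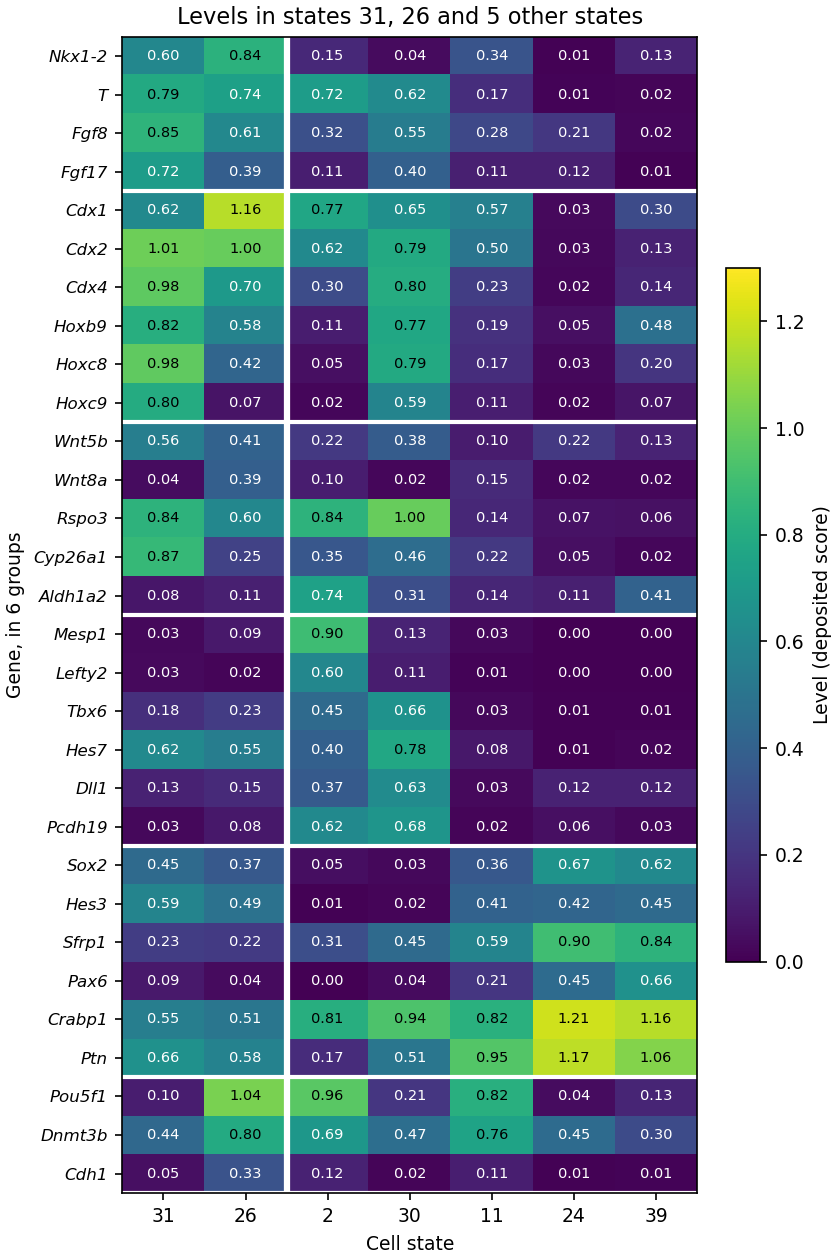
Levels (deposited scores, as numbers and colour) of 30 genes in states 31, 26, 2, 30, 11, 24 and 39, in 6 groups from top to bottom (markers, Cdx and Hox, Wnt and retinoic acid, mesoderm, neural, epiblast). Hes3 and Sox2 are low in states 2 and 30 and T is low in states 11, 24 and 39, while states 31 and 26 hold all 3; Pou5f1 is high in states 26, 2 and 11 and low in state 31.

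Genes that differ between state 30 and state 39 were then read in states 31 and 26, a description also added after the levels had been seen. State 30 exceeded state 39 by at least 0.5 in 18 genes. The level of state 31 was nearer to state 30 in 10 of them and nearer to state 39 in 8, and for state 26 the numbers were 8 and 10. On the side of state 30 in both states were T, Fgf8, Rspo3, Hes7, Cdx2, Cdx4 and Hoxaas3. Of these, T, Fgf8, Cdx2 and Cdx4 are markers of the label. They were higher in state 31 than in state 30 (T 0.79 against 0.62, Fgf8 0.85 against 0.55, Cdx2 1.01 against 0.79, Cdx4 0.98 against 0.80). Nearness to state 30 is therefore not a measure of mesoderm. On the side of state 39 in both were Tbx6 (0.18 in state 31 and 0.23 in state 26, against 0.66 in state 30), Dll1, Dll3, Pcdh19, Lef1, Fn1 and Cited1. Of the 9 genes higher in state 39, Sox2 and Igfbp2 were nearer to state 39 in both states 31 and 26, while Pax6, Irx3, Ptn, Crabp2 and 1700011H14Rik were nearer to state 30. The 2 states differed in Hoxc8, Hoxc9 and Lmo2, which were nearer to state 30 in state 31, in Map1b, nearer to state 39 in state 31, and in Fgfbp3 and Phlda2, nearer to state 30 in one of them and to state 39 in the other.

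Against all other states, 13 genes (1.83%) had a mean over states 31 and 26 that exceeded the mean over the 40 others by 0.5 or more, and none (0%) fell short of it by as much. They comprised the 6 markers, Cdx1, Hoxaas3, Hoxb8, Hoxb9, Hoxc8, Epha5 and the retinoic acid binding gene Crabp2. Hoxaas3 led, at 1.20 in state 31 and 1.03 in state 26, with the others averaging 0.19 and state 30 at 1.17, above state 26. Epha5 averaged 0.024 over the 40 others, of which state 30 was highest at 0.29. The lowest differences, short of 0.5, belonged to the metallothionein genes Mt1 (0.11 in state 31 and 0.18 in state 26, mean of the others 0.55) and Mt2 (0.090 and 0.18, mean 0.49) and the keratin gene Krt8 (0.31 and 0.29, mean 0.67).

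State 31 held the highest level of all 42 states in 26 genes and state 26 in 13. The mean over all 42 states was 16.95 genes per state, so state 31 lay above the mean and state 26 below it. Of the 26 genes of state 31, the next state was state 30 in 15 and state 26 in 6. They included 8 Hox genes, Evx1, a homeobox gene of the posterior streak (0.43, against 0.33 in state 30), and its antisense neighbour Evx1os (0.45, against 0.34). The widest leads were those of Fgf17 (0.72, against 0.40 in state 30) and Greb1 (0.87, against 0.57). In state 26 the widest leads were those of Cdx1 (1.16, against 0.77 in state 2) and Nefm (0.55, against 0.27 in state 3). Also highest in state 26 were Gbx2, a homeobox gene of the hindbrain border and early caudal epiblast (0.47, against 0.30 in state 30), and Nr6a1, an orphan nuclear receptor known to repress Pou5f1 (0.85, against 0.68 in state 30). In state 31 Gbx2 was at 0.24 and Nr6a1 at 0.64.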

How the data were processed

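The authors deposited 1 table of scores, which per the file headers are cluster centres of 42 numbered cell states for 712 genes. Per the submitters' processing notes, Cell Ranger (version not given) and the build mm10 were used. Normalisation, clustering, doublet removal and the choice of genes are not given in the sources used here, nor whether the scores are logarithms, so levels were subtracted as deposited and no folds are given. If the scores are logarithms, a difference stands for a ratio. No column belongs to a library, so no replicate, depth, error or test was available. A gene was called at a difference of 0.5, and against states 2, 11 and 24 states 31 and 26 also had to lie on the same side. The members, 23 gene lists and alternatives were chosen with earlier results of these data known. Named genes were up to 12 per direction for state 31 against 26, up to 8 per direction against the others, genes peaking in either state, and list members. One Hox gene is not reported here and was left out of the Hox summaries. Positions came from GENCODE M21 (GRCm38; 704 of 712 genes found) and promoters from RefSeq (GRCm38.p6, the same assembly as mm10). Python 3.11.15, pandas 2.3.3 and numpy 2.4.6 were used, and the calling code was tested on simulated data.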

Additional observations from a re-analysis of the deposited data

How the results depend on the processing

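The threshold decided the counts most. For state 31 against state 26, 8 genes were called at 0.5, 35 at 0.25 and 1 (Pou5f1) at 0.75. At 0.25 and 0.75 the counts were 67 and 2 against state 2, 55 and 0 against state 11, 78 and 5 against state 24, and 56 and 1 against all other states. State 26 alone gave 9 genes and state 31 alone 26 against state 2, and against state 11 these were 5 and 24. Against the highest other state no gene reached 0.5, and against the median of the other states 20 did. Scaling each state to one SD left 7 of the 11 genes against state 11. For the other counts, centring each state on its median and scaling to one SD stayed within 1.5 times, and all 8 genes of state 31 against state 26 were kept under both. The correlation of states 31 and 26 was 0.895 without centring of genes and moved by less than 0.1 under the other 5 alternatives. Among the 40 other states, state 30 was nearest to state 31 and state 11 to state 26 under all 6 alternatives. State 31 was closer to state 26 than to state 30 under Spearman correlation (0.712 against 0.692), without centring (0.895 against 0.893) and without Hox genes and transcripts (0.722 against 0.660), the reverse of the reported order. Of the alternatives, 2 (without Xist and globins, and without Hox genes and transcripts) were chosen after seeing the data. No paired analysis was possible because no column belongs to a sample, and for the same reason no replicate could be left out. Depth per state is unknown, so low levels may rest on few reads.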
